A study of Homo sapiens with 36 samples.

Results

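Passenger strands are the arms of microRNA (miRNA) hairpins that the MirGeneDB annotation marks with an asterisk, as opposed to the guide strand of the same hairpin. The table of mature miRNAs held 135 entries, and the 25 whose name ends in an asterisk were taken as passenger strands, with no use of their measured values. Of these, 10 came from the 5p arm and 15 from the 3p arm. The guide strand of the same hairpin was listed for 18 of the 25 and was not among the entries for the other 7. No pair of passenger entries had identical values, whereas 4 of the listed guides shared their values with another guide entry.

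Small RNAs were sequenced from HEK293T cells, an established human embryonic kidney line, in 36 libraries of 12 conditions with 3 replicates each. The cells had been transfected with Flag/HA-tagged wild-type AGO2 (WT-AGO2), with 1 of 4 Flag/HA-tagged AGO2 variants (F182del, N359H, G604R, D619N) or with the Flag/HA-empty vector. The study's methods give co-transfection with the GFP plasmid pEGFP-C1 for the AGO2 vectors. They do not state it separately for the empty vector. For each construct, RNA was taken from the anti-HA immunoprecipitate (IP) and from an aliquot of the same cleared lysate (input). The tagged proteins were overexpressed beside the endogenous AGO2 of the cells, which the input also contains. The replicates are separate samples in the labels, but whether they came from independent cultures is not given in the sources used here, so the p-values measure the spread between these samples.

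Argonaute proteins receive a miRNA as a short duplex that Dicer has cut from the hairpin. One strand is kept as the guide, which pairs with target mRNAs through its seed, and the other, the passenger strand, is cleaved or released and degraded. Which strand is kept is known to depend on the 5′ nucleotide and on how stably each 5′ end is paired, and for some hairpins both arms are retained. Passenger reads in an Argonaute IP may stand for strands retained as guides or for duplexes not yet unwound, and the read counts do not separate these.

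The mature sequences below are those of 5 passenger strands whose MirGeneDB name has no paralogue number, so that the name points to 1 gene, together with the other arm of each hairpin. They include 4 strands that passed a test between conditions (Mir-361-v1_3p*, Mir-582-v1_3p*, Mir-340_3p* and Mir-1910_5p*). Capitals mark the seed, bases 2 to 8, and the sequences are from RefSeq (GRCh38.p14). Sequences were matched in this way for 5 passenger strands; the other 20 are given by name.
hsa-miR-361-3p: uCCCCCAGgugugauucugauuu
hsa-miR-361-5p: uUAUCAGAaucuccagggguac
hsa-miR-582-3p: uAACUGGUugaacaacugaacc
hsa-miR-582-5p: uUACAGUUguucaaccaguuacu
hsa-miR-340-3p: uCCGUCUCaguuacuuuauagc
hsa-miR-340-5p: uUAUAAAGcaaugagacugauu
hsa-miR-1910-5p: cCAGUCCUgugccugccgccu
hsa-miR-1910-3p: gAGGCAGAagcaggaugaca
hsa-miR-1307-3p: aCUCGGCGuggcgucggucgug
hsa-miR-1307-5p: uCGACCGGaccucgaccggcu
In each pair the first line is the passenger strand. The 10 seeds are all different, and the arms of each hairpin thus differ in seed. Entries with the suffix v1 are annotated processing variants, whose 5′ end may differ from the RefSeq sequence shown. All 5 genes lie on the minus strand: MIR361 at chrX:85903636-85903707 in an intron of CHM, MIR582 at chr5:59703606-59703703 in an intron of PDE4D, MIR340 at chr5:180015303-180015397 in an intron of RNF130, MIR1910 at chr16:85741621-85741700 in an intron of C16orf74, and MIR1307 at chr10:103394253-103394401, overlapping an exon of ATP5MD.

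Mature miRNA reads per library ranged from 1150 to 30793 in the 15 IP libraries of the AGO2 constructs, from 446 to 12040 in the 18 inputs and from 174 to 202 in the 3 empty-vector IPs. These reads were derived from the deposited RPM (reads per 1000000 reads of a library), whose values above 0 were whole multiples of 1 read in every library. In 7 libraries no miRNA had a value of 1 read, so that the worth of 1 read was the largest step that divides all values, and a larger true number of reads cannot be told apart there. Shares, CPM and percentages of a hairpin are ratios within a library and do not depend on it, whereas read numbers, intervals and floors do. At this depth most passenger values were low: 520 of the 900 values were 0, none was 1 read, 86 were 2 reads and 53 were 3 reads. A value of 0 may thus hide a single read, which weighs more in shallow libraries. The shallow inputs, replicate 1 of G604R with 446 reads and replicate 1 of D619N with 817 reads, set limits to the comparisons in which they take part. Confidence intervals and detection floors given here cover counting error only. In such bulk libraries, a change in the number of expressing cells and a change in RNA per cell cannot be told apart.

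The summed share of passenger strands among mature miRNA reads differed between the AGO2 constructs in the IP. In the WT-AGO2 IP it was 2.60%, 2.26% and 2.98% in replicates 1 to 3 (mean 2.61% ± 0.363 SD, n = 3). The F182del IP gave 3.85%, 3.50% and 4.50% (3.95% ± 0.508), and the G604R IP gave 5.38%, 4.4% and 4.12% (4.63% ± 0.661). All 3 libraries of each of these variants lay above all 3 WT libraries. The N359H IP gave 2.30%, 1.85% and 1.48% (1.87% ± 0.411), which overlapped with WT. The D619N IP gave 2.23%, 1.17% and 1.64% (1.68% ± 0.534), and all 3 values lay below WT, with the highest close to the lowest WT value of 2.26%. Brought to a common depth of 1150 mature reads, with the depth chosen after the data were seen, the F182del and G604R libraries lay above WT (means 3.46% and 4.36% against 2.15%), whereas those of D619N overlapped with WT (1.41%).

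**Figure D1:**
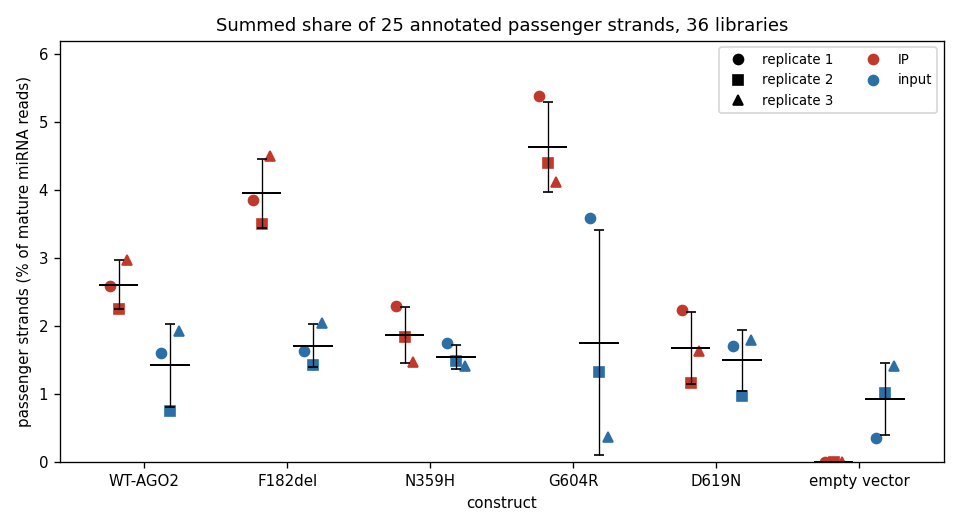
Share of mature miRNA reads (percent) that fell on the 25 passenger strands in each of the 36 libraries, by construct, with IP in red and input in blue; lines give the mean and bars the SD over 3 replicates, cut at 0. The F182del and G604R IPs (3.50% to 5.38%) sit above the WT-AGO2 IPs (2.26% to 2.98%), and the empty-vector IPs are at 0.

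No passenger read was listed in the empty-vector IP, in 0 of 184, 0 of 174 and 0 of 202 mature reads. If each 0 stands for no read, the 560 reads together allow a share of up to 0.536%. The lowest share among the 15 AGO2 IP libraries was 1.17%. Single empty-vector libraries then allow up to 1.49% to 1.72%. At the depth of 1 library the lowest D619N and N359H shares could thus not be separated from the empty vector. No passenger value of 1 read was listed in any library, so single reads may be missing and these bounds may be too low. A separation of the empty vector from the AGO2 IPs is therefore not established.

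Passenger strands took a larger share of the IP than of the input for 3 of the 5 AGO2 proteins. The WT-AGO2 inputs held 1.61%, 0.749% and 1.93%, and the empty-vector inputs 0.364%, 1.01% and 1.42%. Of the variants, D619N inputs held 1.71%, 0.980% and 1.80%, G604R inputs 3.59%, 1.33% and 0.368%, N359H inputs 1.75%, 1.49% and 1.41%, and F182del inputs 1.64%, 1.43% and 2.05%. The inputs of every variant and of the empty vector overlapped with those of WT. The IP libraries lay above the inputs without overlap for WT-AGO2, F182del and G604R, and overlapped with them for N359H and D619N. Without Mir-221-P1a_5p*, the strand with the most reads, N359H also lay above its inputs (1.47% against 1.12%), while G604R overlapped with its inputs (3.0% against 1.43%). Pooled over the AGO2 constructs, passenger strands had 3284 of 107484 reads in the IPs (3.06%, 95% Wilson interval 2.95 to 3.16) and, over all inputs, 994 of 69679 reads (1.43%, 1.34 to 1.52).

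Since IP and input of 1 number came from the same lysate, their shares were also set as a ratio within each replicate. The ratio was 1.62, 3.01 and 1.54 for WT-AGO2 (mean 2.06 ± 0.827, n = 3) and 2.35, 2.44 and 2.19 for F182del (2.33 ± 0.126). For N359H it was 1.31, 1.24 and 1.05 (1.2 ± 0.138) and for D619N 1.30, 1.19 and 0.910 (1.14 ± 0.203). All values of N359H and D619N lay below those of WT, and those of F182del overlapped with WT. For G604R it was 1.5, 3.31 and 11.2 (5.34 ± 5.16), where the last value rests on 5 passenger reads in the input of replicate 3, and without replicate 3 the mean was 2.41.

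On the scale of the deposited RPM, which relates to all reads of a library and not to miRNA reads alone, passenger strands were raised in the IP together with the other miRNAs. Their summed RPM was 1644 ± 1116 in the WT-AGO2 IP against 51.4 ± 37.5 in its input (n = 3), a ratio of 31.1, 79.4 and 14.9 in replicates 1 to 3, beside 19.1, 26 and 9.54 for the other 110 entries. For F182del the ratios were 34.2, 25.8 and 19.6 for passenger strands against 14.2, 10.3 and 8.70 for the others. For N359H they were 7.80, 27.2 and 19.6 against 5.91, 21.8 and 18.8. For D619N they were 3.29, 14.2 and 30.7 against 2.51, 11.9 and 33.8, and in replicate 3 the passenger ratio was the lower of the pair. In replicate 1 of G604R both ratios were below 1, at 0.878 and 0.575, and this input is the one with 446 mature reads. In replicates 2 and 3 of G604R they were 27.0 and 98.0 for passenger strands against 7.90 and 8.41 for the others. In the empty-vector IP the passenger strands were at 0, while the ratios of the other entries were 3.48, 1.18 and 2.70.

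The number of passenger strands listed above 0 was higher in deeper libraries. It was 20, 17 and 19 of 25 in the WT-AGO2 IP and 21, 17 and 24 in the F182del IP. The other IPs listed 16, 5 and 9 (D619N), 16, 10 and 14 (G604R) and 17, 14 and 5 (N359H). Over the 15 IP libraries of the AGO2 constructs, Spearman's rho between this number and the mature reads was 0.837, while between the summed share and the mature reads it was 0.229. Both are descriptions over libraries that share constructs. At a common depth of 1150 mature reads the expected number was 6.14 ± 0.563 in the WT-AGO2 IP, 8.74 ± 0.722 with F182del and 8.59 ± 0.676 with G604R, and 5.34 ± 0.313 with N359H and 4.5 ± 1.84 with D619N (n = 3 each). F182del and G604R then lay above WT in all libraries, so the order of G604R and WT was the opposite of that of the plain numbers, where G604R lay below WT. The inputs listed from 2 to 19 strands, with a median of 8.

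**Figure D2:**
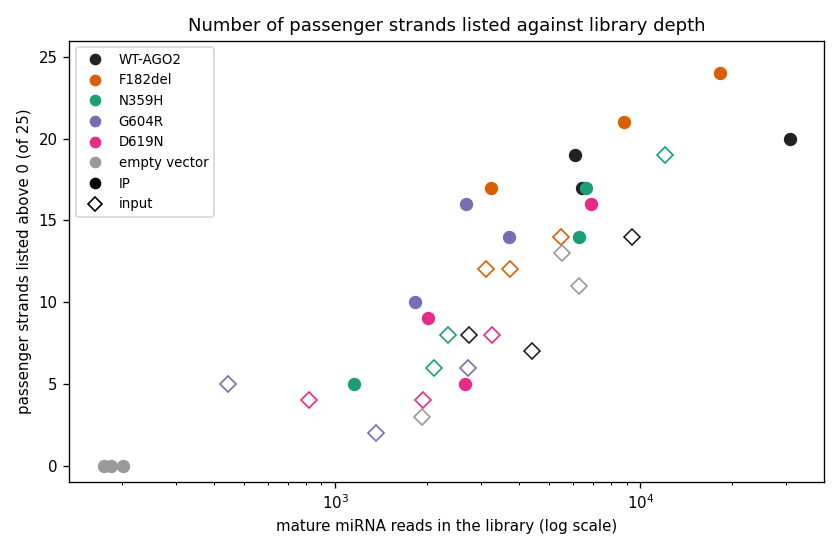
Number of passenger strands listed above 0 (of 25) against the mature miRNA reads of the library (log scale), with filled circles for IP and open diamonds for input, coloured by construct. Libraries with more reads list more strands, from 0 in the empty-vector IPs to 24 in the deepest F182del IP.

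Most passenger reads came from the 5p arm, although 15 of the 25 strands are 3p. The 3p arm held 27.7% ± 3.59 of passenger reads in the WT-AGO2 IP (25.5% to 31.9%, n = 3), 29.1% ± 4.48 in F182del and 22.4% ± 9.41 in N359H. In G604R it held 17.6% ± 2.22, from 16.3% to 20.1%, and all 3 libraries lay below WT. In D619N it held 52.9% ± 9.33, from 42.9% to 61.3%, and all 3 libraries lay above WT. Without Mir-221-P1a_5p*, the strand with the most reads, D619N was 18 percentage points above WT in place of 25.2, and F182del 7.56 above in place of 1.40. The small F182del difference turned to -0.890 without replicate 1 of its IP. A single strand, Mir-10-P1c-v1_3p*, had 29, 17 and 11 of the 154, 31 and 33 passenger reads of the D619N IPs. Reads from all 3p arms were 66, 19 and 18 there. The higher 3p share of D619N thus rests largely on this strand. The share without it was not computed, so a rise of 3p strands in general is not shown. In the inputs the 3p share averaged from 27.1% with WT-AGO2 to 39.8% with F182del, whose inputs all lay above those of WT. The IPs of F182del and G604R lay below their own inputs in all libraries.

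**Figure D3:**
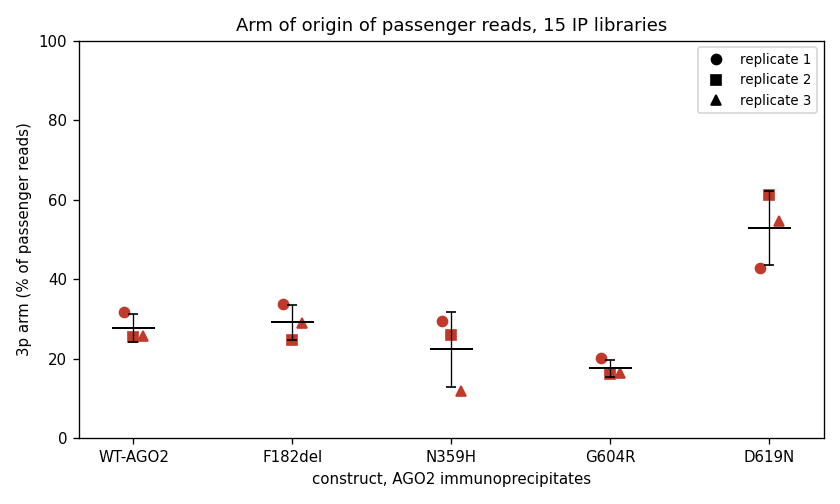
Percentage of passenger reads that came from 3p arms in the 15 IP libraries of the AGO2 constructs, with the mean and SD over 3 replicates. The D619N libraries (42.9% to 61.3%) lie above and the G604R libraries (16.3% to 20.1%) below the WT-AGO2 libraries (25.5% to 31.9%). In D619N much of the 3p share came from the single strand Mir-10-P1c-v1_3p*.

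A few strands made up most of the passenger reads. Mir-221-P1a_5p* had 29.1% of the passenger reads of the AGO2 IPs, Mir-148-P1_5p* 14.5%, Mir-130-P3b_5p* 8.22% and Mir-126-P2-v1_5p* 6.36%, and these 4 leading strands are all 5p. They were followed by Mir-181-P1a_3p* with 5.12%, and the first 8 strands together had 75.3%. In the inputs Mir-221-P1a_5p* had 24.7%, Mir-126-P2-v1_5p* 22.5% and Mir-148-P1_5p* 13.9%, while Mir-130-P3b_5p*, the third in the IPs, had only 8 reads in all 18 inputs (0.805%). The 7 passenger strands without a listed guide had 20.8% of passenger reads in the AGO2 IPs and 30.7% in the inputs. Mir-148-P1_5p* was the only strand listed in all 15 AGO2 IPs, and Mir-126-P2-v1_5p* was listed in 17 of 18 inputs.

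As mean CPM (reads per 1000000 mature miRNA reads), 21 of the 25 strands were higher over the 15 AGO2 IPs than over the 18 inputs, or 84.0%, beside 46 of the other 110 entries, or 41.8%. CPM is relative within a library, so the rise of some entries lowers others. The 21 were 9 of the 10 5p strands and 12 of the 15 3p strands. The 4 that were lower were Mir-126-P2-v1_5p*, Mir-30-P1a_3p*, Mir-21_3p* and Mir-193-P1b_3p*. Mir-193-P1b_3p* was listed in 10 of 18 inputs with 38 reads and in 2 of 15 AGO2 IPs with 6 reads. Mir-361-v1_3p*, Mir-193-P1a_5p* and Mir-340_3p* were at 0 in all 18 inputs and had 14, 34 and 14 reads in the AGO2 IPs. These 3 count among the 21, and their direction was fixed, since they are listed through the IPs alone. Mir-130-P3b_5p*, Mir-128-P2_5p*, Mir-92-P1a_5p*, Mir-92-P2d_5p* and Mir-17-P4d_3p* were each listed in only 2 of 18 inputs, with 8, 6, 4, 4 and 4 reads. The contrast with the other entries therefore depends partly on the listing and on the depth of the inputs.

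**Figure D4:**
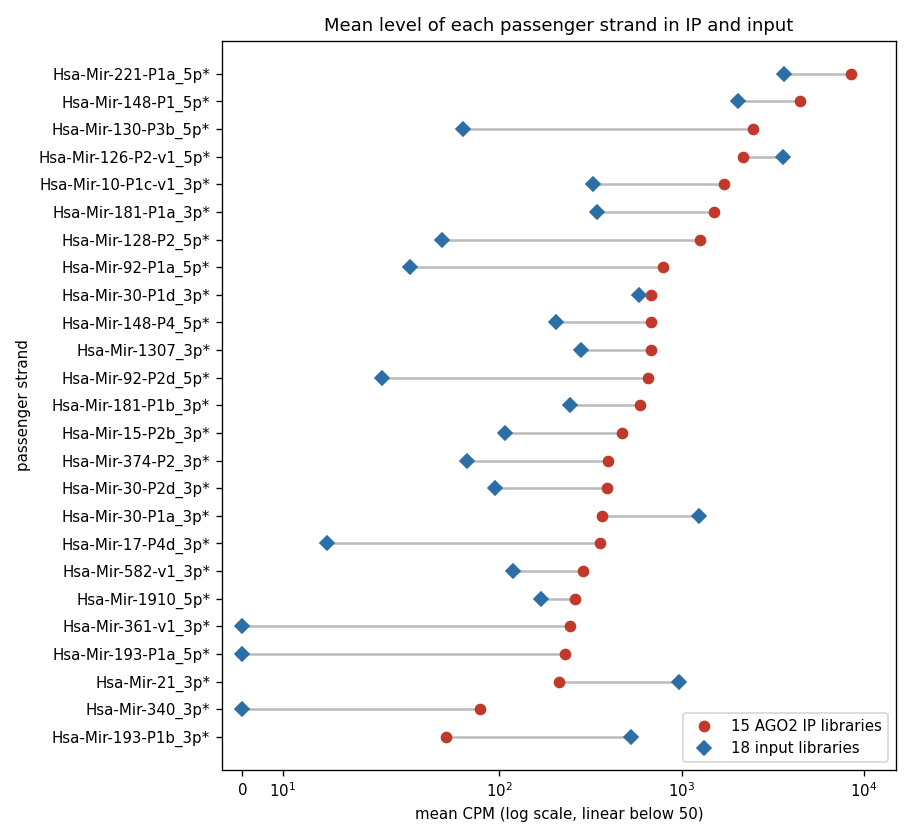
Mean CPM of each passenger strand over the 15 AGO2 IP libraries (red circles) and the 18 input libraries (blue diamonds), on a log axis that is linear below 50. Of the 25 strands, 21 lie higher in the IP, Mir-130-P3b_5p* and Mir-128-P2_5p* by a wide margin. The 21 include 3 strands at 0 in the inputs, which could only lie higher.

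Mir-221-P1a_5p* and its guide were both well covered. In the WT-AGO2 IPs the passenger strand had 180, 25 and 64 reads beside 416, 149 and 125 guide reads, or 26.1% ± 10.4 of the hairpin's reads, and in the WT inputs it had 33, 15 and 19 reads, or 29.9% ± 7.0. In the F182del IPs it had 91, 43 and 332 reads, a level of 13929 ± 3976 CPM against 6739 ± 3387 in WT (n = 3 each). In the G604R IPs it had 62, 23 and 55 reads, or 16871 ± 5554 CPM. After the scaling of the fit, all 3 libraries of both variants lay above WT, but neither difference passed the test across all miRNAs (log2 difference 1.18 ± 0.34 SE for F182del, adjusted p = 0.0585, and 1.24 ± 0.40 for G604R, adjusted p = 0.237, limma). In the D619N IPs it had 12, 0 and 2 reads and lay below WT in all libraries, again without passing the test (adjusted p = 0.128). As a percentage of its hairpin it overlapped between all variants and WT. Without this strand, the share of the other 24 in the F182del and G604R IPs still lay above WT, by 0.646 and 1.05 percentage points in place of 1.34 and 2.02, whereas D619N overlapped with WT and N359H then lay below it.

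Mir-148-P1_5p* made up a larger part of its hairpin in the IP than in the input. It had 162, 36 and 16 reads in the WT-AGO2 IPs beside 362, 95 and 68 guide reads, or 25.8% ± 6.11, and 30, 3 and 9 reads in the inputs beside 271, 124 and 69 guide reads, or 7.96% ± 4.91. The IP percentages lay above the input percentages in all libraries also for F182del (27.3% ± 5.0 against 8.52% ± 3.89), N359H (34.2% ± 17.3 against 6.38% ± 2.82) and G604R (31.0% ± 3.46 against 7.02% ± 12.2). They overlapped for D619N, at 29.1%, 4.55% and 8.70% in the IPs. The difference of the log2 strand ratio did not pass the test for any of the 5 proteins, with adjusted p = 0.188 for WT-AGO2.

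Mir-128-P2_5p* was listed in 13 of the 15 AGO2 IPs and in few inputs. It had 24, 3 and 5 reads in the WT-AGO2 IPs, 19, 10 and 34 with F182del, 3, 4 and 0 with N359H, 5, 4 and 8 with G604R and 10, 0 and 2 with D619N. Of the 18 inputs it was listed in 2, with 2 reads in N359H and 4 reads in the empty vector. For WT-AGO2, G604R and D619N its mean IP level was 0.987, 0.620 and 0.398 times that of 3 reads per input library. An equal level in those inputs could thus have gone undetected. With F182del, Mir-128-P2_5p* was at least 3.08-fold above that level. It made up 18.6%, 13% and 16.7% of its hairpin in WT, 65.5%, 55.6% and 43.0% in F182del, and 50%, 50% and 36.4% in G604R, so that both variants lay above WT in all libraries. Across the 18 hairpins compared between F182del and WT, the ratio of passenger to guide did not pass the test (adjusted p = 0.301), nor did it for G604R among 17 hairpins (adjusted p = 0.329).

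**Figure D5:**
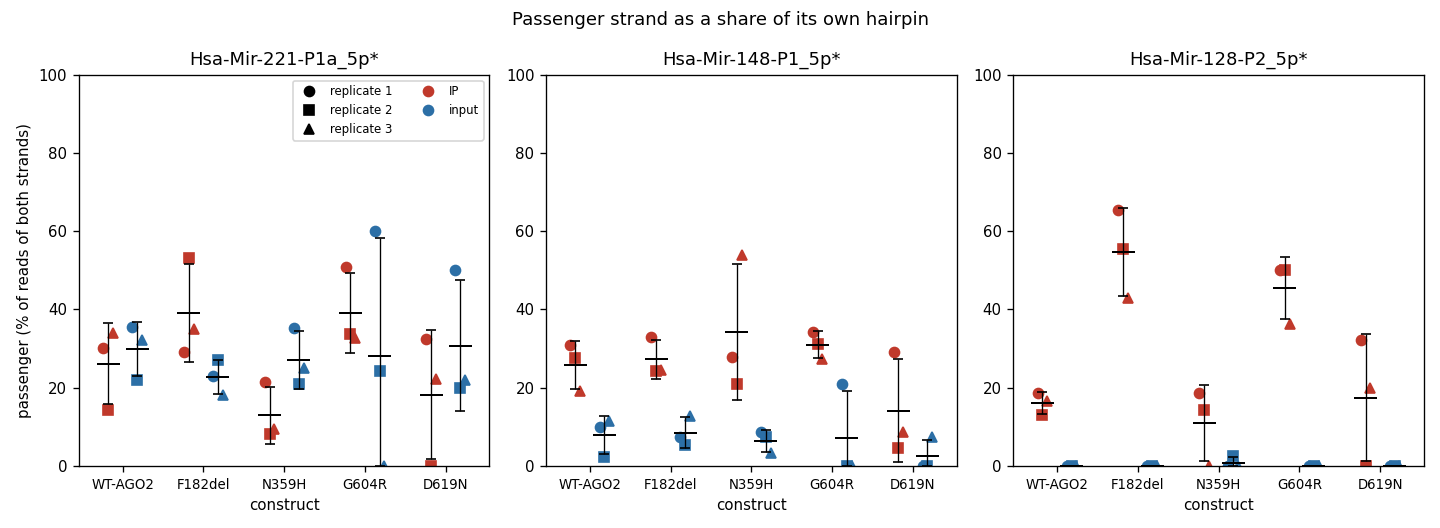
Passenger reads as a percentage of the reads of both strands for Mir-221-P1a, Mir-148-P1 and Mir-128-P2 in each IP (red) and input (blue) library of the 5 AGO2 constructs, with the mean and SD over 3 replicates, cut at 0. Mir-148-P1_5p* and Mir-128-P2_5p* lie higher in the WT-AGO2 IPs than in the inputs, and Mir-128-P2_5p* lies between 36.4% and 65.5% in the F182del and G604R IPs. In the WT inputs Mir-128-P2_5p* is at 0, and its WT IP level was below that of 3 reads per input library.

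Among the 18 strands with a listed guide, Mir-181-P1a_3p* and Mir-181-P1b_3p* had a higher mean CPM than their own guide in the WT-AGO2 IP. None of the 18 was so in the WT input, and the 7 without a listed guide could not be compared. Mir-181-P1a_3p* had 35, 6 and 5 reads and its guide 13, 0 and 1, and Mir-181-P1b_3p* had 28, 7 and 2 reads. The guides of these hairpins have the same values in the table, so the reads of 1 locus cannot be told from those of the other. With D619N the guide had 13, 5 and 2 reads and Mir-181-P1a_3p* 8, 2 and 2 reads, or 38.1%, 28.6% and 50% of the hairpin, and all 3 lay below the WT percentages of 72.9%, 100% and 83.3%. The ratio did not pass the test (adjusted p = 0.369).

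Each strand was tested between IP and input with limma on log2 values, after scaling to the bulk of the miRNAs, and called at an adjusted p of at most 0.05 and a log2 difference of at least 1. With WT-AGO2, 3 of the 20 passenger strands that passed the filter were called, all higher in the IP, beside 11.9% of all 126 miRNAs tested (7.94% higher and 3.97% lower). The median log2 difference was 1.97 over the passenger strands and 0.28 over all miRNAs. Of the 20, 10 were higher in all IP libraries than in all inputs and 0 were lower in all, beside 27% and 16.7% of all miRNAs. A strand at 0 in all libraries of 1 group passes the filter through the other group alone, and its difference depends on the pseudocount. The medians and the counts without overlap over passenger strands therefore depend on the filter, here and in the comparisons below. With the replicate as a block, 5 strands were called, and on the deposited RPM without further scaling 16 were. The 3 called strands were at 0 in all WT inputs. Mir-130-P3b_5p* had 66, 21 and 22 reads in the IP, which is at least 4.31-fold higher than 3 reads per input library would be (adjusted p = 0.00223). Mir-128-P2_5p* (adjusted p = 0.0169) and Mir-1910_5p*, with 32, 3 and 2 reads (adjusted p = 0.0267), had mean levels of 688 and 611 CPM, under the 698 CPM that 3 reads per input library amount to, so that their fold cannot be bounded at this depth. Both were no longer called without replicate 1 of the IP or replicate 2 of the input, or with a pseudocount of 10 RPM, where their log2 differences were 0.96 and 0.86. Without either of these libraries 1 strand was called in all, without replicate 2 of the IP 5 were and without replicate 1 of the input 6.

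With F182del, 11 of 24 passenger strands were called, beside 23.5% of 132 miRNAs, 10 higher and 1 lower in the IP, where 15.9% and 7.58% of all miRNAs were called. Their median difference was 1.66 (log2) against 0.29 over all miRNAs. Without overlap of the libraries, 12 were higher and 1 lower, beside 23.5% and 14.4%. The best covered was Mir-221-P1a_5p*, with 91, 43 and 332 reads in the IP and 11, 24 and 14 in the input (log2 difference 2.13 ± 0.29 SE, adjusted p = 1.34e-05), and it remained called under each of its 11 alternatives. Mir-128-P2_5p*, at 0 in the inputs, was at least 3.08-fold higher (adjusted p = 0.000983) and Mir-193-P1a_5p*, with 18, 2 and 14 reads in the IP and 0 in the inputs, at least 1.48-fold higher (adjusted p = 0.00963). For Mir-193-P1a_5p* this bound was 0.900 without replicate 1 of the IP. Mir-130-P3b_5p* had 21, 7 and 66 reads in the IP and 2, 0 and 0 in the input (adjusted p = 0.0028). Mir-30-P2d_3p* and Mir-17-P4d_3p*, also at 0 in the inputs, had bounds of 1.19 and 1.04, each 0.758 at the lowest without a library, which was replicate 1 of the IP for the former and replicate 2 for the latter. The other strands called higher were Mir-181-P1a_3p*, Mir-374-P2_3p*, Mir-92-P1a_5p* and Mir-92-P2d_5p*, and these calls were lost under 2, 5, 6 and 7 of 11 alternatives. Mir-92-P2d_5p*, with 3, 2 and 4 reads, also had a level below that of 3 reads per input library. The strand that fell was Mir-21_3p*, the partner of the oncogenic miR-21, with 0, 0 and 4 reads in the IP against 6, 2 and 8 in the input (log2 difference -2.92 ± 0.99 SE, adjusted p = 0.035), and this call was lost under 6 of its 11 alternatives. Without replicate 1 of the IP 6 strands were called in all, and without replicate 3 of the IP 7 were.

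With N359H, no passenger strand of the 16 tested was called by limma, beside 11.7% of 120 miRNAs, and 4 had an unadjusted p under 0.05. Of all miRNAs 3.33% were called higher and 8.33% lower. With the replicate as a block 1 was called. Over the 16 strands the median difference was 1.33 (log2) against -0.31 over all miRNAs. In all IP libraries 2 strands were higher and 1 lower than in all inputs, beside 17.5% and 22.5%. Mir-130-P3b_5p* had 13, 13 and 3 reads in the IP and 0, 6 and 0 in the input. Without replicate 3 of the IP, with 1150 mature reads, 2 strands were called, and without replicate 1 of the input 1 was.

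With G604R, 5 of 13 passenger strands were called, all higher in the IP, beside 8.57% of 105 miRNAs, and with the replicate as a block none was (adjusted p = 0.0714 for each of the 5). No miRNA was called lower (0%). The median was 3.64 (log2) against 0.48 over all miRNAs. Libraries did not overlap for 6 strands, all higher, beside 23.8% of miRNAs higher and 11.4% lower. All 5 were at 0 in the 3 inputs. Mir-130-P3b_5p*, with 9, 8 and 21 reads in the IP, was at least 1.34-fold higher than 3 reads per input library, a bound that was 2.70 without replicate 1 of the input and 1.0 without replicate 2. For Mir-181-P1a_3p* (7, 4 and 10 reads), Mir-128-P2_5p* (5, 4 and 8), Mir-361-v1_3p* (3, 2 and 3) and Mir-92-P1a_5p* (2, 3 and 2) the mean CPM in the IP was below the level of 3 reads per input library, so no fold can be given. For Mir-181-P1a_3p* and Mir-128-P2_5p* the ratio to that level was 1.51 and 1.25 without replicate 1 of the input, and 0.560 and 0.464 without replicate 2.

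With D619N, 3 of 11 passenger strands were called, all higher in the IP, beside 17.5% of 103 miRNAs, and with the replicate as a block none was (adjusted p = 0.0901 for each of the 3). Of all miRNAs 12.6% were called higher and 4.85% lower. The 11 strands had a median of 3.42 (log2) against 0.06 over all miRNAs, and 3 were higher and 1 lower without overlap, beside 18.4% and 15.5%. Mir-10-P1c-v1_3p* had 29, 17 and 11 reads in the IP and 0, 0 and 4 in the input (adjusted p = 0.0466). This call was lost under 7 of 11 alternatives, among them leaving out any of the IP libraries. Mir-181-P1a_3p* and Mir-92-P2d_5p*, with 10, 2 and 4 reads, were at 0 in the inputs, at levels below those of 3 reads per input library. Without replicate 2 of the IP 5 strands were called. Mir-221-P1a_5p* lay lower in all IPs than in all inputs, with 12, 0 and 2 reads against 5, 6 and 13 (log2 difference -3.0 ± 1.52 SE, adjusted p = 0.199).

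In the empty-vector control, Mir-126-P2-v1_5p*, Mir-148-P1_5p* and Mir-21_3p* were called lower in the IP, 3 of 9 passenger strands beside 40.6% of 101 miRNAs (1.98% higher and 38.6% lower). Their median was -1.81 (log2) against -1.85 over all miRNAs, and 3 were lower and 0 higher without overlap, beside 41.6% and 1.98%. Since all passenger values of this IP were 0 in at most 202 reads, 3 reads per library amount to 16132 CPM, above the level of each strand in the inputs, and a lower level was not detectable at this depth. Without replicate 1 of the input 9 strands were called.

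Between the IPs of F182del and WT-AGO2, 3 of 24 passenger strands were called, all higher in F182del, beside 6.02% of 133 miRNAs (4.51% higher and 1.5% lower). The median log2 difference was 0.52 against 0.01 over all miRNAs. In all libraries 8 strands were higher than in WT and 1 was lower, beside 13.5% and 9.02%. The 3 strands were at 0 in all WT IPs. Mir-374-P2_3p* had 27, 4 and 30 reads with F182del and was at least 5.62-fold higher than 3 reads per WT library (adjusted p = 0.0142). Mir-582-v1_3p*, whose RefSeq sequence above has the seed AACUGGU, had 7, 4 and 31 reads and was at least 3.53-fold higher (adjusted p = 0.0142). Mir-193-P1a_5p* had 18, 2 and 14 reads and was at least 3.24-fold higher (adjusted p = 0.0188), or 1.97-fold without replicate 1 of the F182del IP. Mir-374-P2_3p* was also listed in the F182del inputs, with 2, 3 and 0 reads, and in no other library. Its guide had 0, 2 and 10 reads in the F182del IPs, fewer than the passenger strand in each of them. Mir-193-P1a_5p* was listed only in the 3 F182del IPs of the 36 libraries. The calls of Mir-374-P2_3p* and Mir-582-v1_3p* remained under each of their 11 alternatives.

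Between the IPs of N359H and WT-AGO2, no passenger strand of 20 was called by limma, beside 0% of 123 miRNAs, and 2 had an unadjusted p under 0.05. The strands had a median of -1.58 (log2) against -0.56 over all miRNAs. In all libraries 2 strands were lower than in WT and 0 were higher, beside 8.13% and 1.63%. Mir-130-P3b_5p*, with 2215 ± 345 CPM against 3004 ± 765 CPM (n = 3 each), stayed listed in all N359H IPs. Without replicate 2 of the WT IP 3 strands were called, and without replicate 3 of the WT IP 2 were.

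Between the IPs of G604R and WT-AGO2, 3 of 21 passenger strands were called, 1 higher and 2 lower in G604R, beside 4.88% of 123 miRNAs (0.813% higher and 4.07% lower). The strands had a median of -0.82 (log2) against -0.34 over all miRNAs. In all libraries 5 were higher and 3 lower than in WT, beside 6.5% and 13%. Mir-361-v1_3p*, whose RefSeq sequence above has the seed CCCCCAG, had 3, 2 and 3 reads with G604R and 0 in the WT IPs. The level of this strand was at least 2.87-fold higher than 3 reads per WT library (limma, adjusted p = 0.0295). This call was lost under 8 of its 11 alternatives, among them leaving out replicate 1 or replicate 3 of the WT IP. The guide of Mir-361-v1 had no read in the G604R IPs and 13, 2 and 6 reads in the WT IPs. Its mean WT level lies below that of 3 reads per G604R library, so a loss of the guide was not detectable at this depth. Mir-1910_5p* (adjusted p = 0.0295) and Mir-340_3p* (adjusted p = 0.0325) were at 0 with G604R, but the 32, 3 and 2 reads and the 5, 3 and 2 reads of the WT IPs lie below the 1192 CPM that 3 reads per G604R library amount to, and a lower level was not detectable at this depth. No strand was called without replicate 1 or without replicate 2 of the G604R IP, with the replicate as a block, without the filter, on the deposited RPM or with a pseudocount of 10 RPM, whereas 3 were called with scaling to mature reads.

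Between the IPs of D619N and WT-AGO2, 6 of 20 passenger strands were called, 1 higher and 5 lower in D619N, beside 14.6% of 123 miRNAs (3.25% higher and 11.4% lower). Their median was -1.86 (log2) against -1.18 over all miRNAs. In all libraries 2 were higher and 6 lower than in WT, beside 11.4% and 26%. Mir-10-P1c-v1_3p* had 29, 17 and 11 reads with D619N and 38, 5 and 8 with WT (log2 difference 2.32 ± 0.33 SE, adjusted p = 0.00444). It made up 1.73%, 3.15% and 3.02% of its hairpin with D619N and 0.735%, 0.418% and 0.753% with WT. Mir-130-P3b_5p* had no read in the D619N IPs and 66, 21 and 22 in the WT IPs, and was at least 2.95-fold lower (adjusted p = 0.00444). For Mir-1910_5p*, Mir-17-P4d_3p*, Mir-30-P1d_3p* and Mir-340_3p*, called lower with 0 reads in the D619N IPs, the level in WT was below that of 3 reads per D619N library, so no fold can be given. Without replicate 1 of the D619N IP 10 strands were called. On the deposited RPM scale none was called, with adjusted p from 0.0565 for the 5 lower strands to 0.155 for Mir-10-P1c-v1_3p*. These 4 comparisons share the WT libraries and are given side by side for this reason.

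Whether the IP over input difference itself changed with the variant was tested as an interaction. For F182del 1 of 25 passenger strands was called (Mir-193-P1a_5p*, higher, beside 0.741% of 135 miRNAs, none lower), for N359H none of 21 by limma (beside 0% of 130, with 2 at an unadjusted p under 0.05), for G604R 2 of 22 (Mir-361-v1_3p* higher and Mir-340_3p* lower, beside 1.54% of 130, with 0.769% in each direction) and for D619N 3 of 21 (Mir-130-P3b_5p*, Mir-1910_5p* and Mir-340_3p*, all with a lower fitted value, beside 3.94% of 127, with 0.787% higher and 3.15% lower). For Mir-1910_5p* and Mir-340_3p*, at 0 in the variant IPs, a lower level was not detectable at this depth. The median log2 differences over the passenger strands were 0.62, -1.46, 0.67 and -1.22 in this order, against -0.06, -0.64, 0.15 and -0.13 over all miRNAs. With the lysate as a block, 3, 0, 0 and 1 strands were called. The call for F182del was lost on leaving out any WT library or any F182del input, and 1 strand was called for G604R without replicate 2 of its IP or replicate 3 of the WT input.

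The log2 ratio of passenger to guide was tested with limma in the hairpins with both strands listed, all of which are members, so no wider background exists. Against the input, the ratio was called higher in the IP for 2 of 15 hairpins with WT-AGO2 (13.3%, Mir-128-P2 and Mir-340), 3 of 17 with F182del (17.6%, Mir-128-P2, Mir-92-P2d and Mir-17-P4d), none of 11 with N359H by limma (0%, with 4 at an unadjusted p under 0.05), 3 of 9 with G604R (33.3%, Mir-181-P1a, Mir-128-P2 and Mir-92-P1a) and 1 of 10 with D619N (10%, Mir-92-P2d). No ratio was lower in all IPs than in all inputs in any of these comparisons, whereas 7 (46.7%), 9 (52.9%), 4 (36.4%), 6 (66.7%) and 2 (20%) were higher in all IPs. A hairpin whose passenger strand was at 0 in all inputs could hardly have a lower ratio in the IP. These counts are therefore partly fixed by the filter and the depth of the inputs. Each called ratio had a passenger strand at 0 in all inputs, so that its size depends on the pseudocount and is not given. Between the variant and WT IPs, none of 18 ratios was called for F182del (0%, with 2 at an unadjusted p under 0.05). For N359H 1 of 16 was called (6.25%, Mir-340, 0 passenger reads beside 15, 9 and 2 guide reads), for G604R 1 of 17 (5.88%, Mir-361-v1) and for D619N 1 of 16 (6.25%, Mir-30-P1d, 0 passenger reads beside 19, 12 and 7 guide reads). For Mir-340 with N359H and Mir-30-P1d with D619N, the WT level of the passenger strand lay below that of 3 reads per variant library. A lower ratio was thus not detectable there at this depth. For Mir-361-v1 with G604R the guide lay below that level in WT, so a loss of the guide was not detectable. Without overlap of the libraries, 3 ratios were higher and 1 lower than in WT with F182del (16.7% and 5.56%), 0 and 1 with N359H (0% and 6.25%), 2 and 1 with G604R (11.8% and 5.88%) and 1 and 3 with D619N (6.25% and 18.8%). With the replicate as a block 1 ratio was called for N359H and none for D619N against the input, and none for N359H and for D619N against WT.

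These counts of ratios were small and several turned on 1 library. Against the input, 5 ratios were called with WT-AGO2 without its input replicate 1 and 6 with F182del without its input replicate 1. For N359H 1 was called without IP replicate 1 and 3 without input replicate 2. For D619N 3 were called without IP replicate 2 or input replicate 3, 2 without input replicate 2, and none without IP replicate 1, IP replicate 3 or input replicate 1. Against WT, 1 was called for F182del without WT IP replicate 1, F182del IP replicate 2 or F182del IP replicate 3. For N359H 2 were called without WT IP replicate 2 and 3 without N359H IP replicate 1. For G604R 4 were called without G604R IP replicate 1 and 2 without its replicate 2, and for D619N 2 without WT IP replicate 1 and 3 without D619N IP replicate 1.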

How the data were processed

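Per the labels and the study's methods, small RNA libraries of 36 samples were processed by the authors with sRNAbench against MirGeneDB (GRCh38), and mature miRNA reads were deposited as RPM in 1 table. All deposited values above 0 were whole multiples of 1 read (tolerance 1e-06 reads), and reads so derived served for depth, shares, CPM, Wilson intervals and the floor of 3 reads per library. For tests, RPM was scaled by the median of ratios over the miRNAs above 0 in every library compared, miRNAs at 1 RPM or more in at least 2 libraries were kept, and log2(RPM + 1) was fitted over the libraries compared with limma 3.58.1 (R 4.3.3), with Benjamini-Hochberg adjustment over all miRNAs tested. Log2 differences of single strands are on this scale, and for strands at 0 in 1 group their size depends on the pseudocount. Folds given as at least a value are instead ratios of mean CPM to the level of 3 reads per library. The scripts were tested on simulated data. Host genes are from the GENCODE annotation of GRCh38.

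IP and input of 1 replicate number came from 1 lysate, which pairs them. The main fits left this pairing out, and the replicate block is the alternative that includes it. The correlation of their deviations from the group means was 0.431, 0.216 and 0.308 for WT-AGO2, and for no other construct were all 3 above 0.1. Between the F182del and WT IPs it was 0.396, 0.160 and 0.258. The strands named were the 8 highest by mean CPM in AGO2 IPs and in inputs, up to 4 of the largest called changes per direction and comparison, up to 4 called strand ratios per comparison, those above their guide in WT, and Mir-1910_5p* and Mir-361-v1_3p*, which the study names. In some comparisons further called strands are named, and these were chosen after their values were seen. Mir-1307_3p* is shown for its sequence. The members and lists were chosen with earlier results of these data known. Alternatives were other pseudocounts, no filter, other scalings, the replicate block, a common depth and leaving out each library.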

Additional observations from a re-analysis of the deposited data

Results flagged for a closer look

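In 6 cases the IP over input difference of a passenger strand differed between a variant and WT-AGO2 by the interaction term (limma, adjusted over all miRNAs). The log2 values depend on the pseudocount, since 1 or more of the groups were at 0, and are not measures of size. For F182del this was Mir-193-P1a_5p* (3.73 ± 0.86 SE, adjusted p = 0.0441), listed in the 3 F182del IPs and in no other library. The call was lost in 10 of 17 alternatives.

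For G604R it was Mir-361-v1_3p* (3.83 ± 0.50, adjusted p = 0.00123), with 3, 2 and 3 reads in the G604R IPs, 0 in the WT IPs and 0 in all inputs. With the lysate as a block its adjusted p was 0.0546. Mir-340_3p* had a negative term (-2.36 ± 0.47, adjusted p = 0.0258, and 0.2 with the block), with 5, 3 and 2 reads in the WT IPs and 0 in the G604R IPs and in both sets of inputs. Its WT level lies below that of 3 reads per G604R library, so a lower level was not detectable at this depth.

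For D619N it was Mir-130-P3b_5p* (-5.86 ± 0.71, adjusted p = 0.000387), with 66, 21 and 22 reads in the WT IPs and 0 in the D619N IPs and in both sets of inputs. This call was kept in all 17 alternatives, with a highest adjusted p of 0.0333. Mir-1910_5p* (-3.55 ± 0.63) and Mir-340_3p* (-2.76 ± 0.49) had negative terms, both with an adjusted p of 0.00521, and of 0.0613 with the lysate as a block. For both, the WT level lies below that of 3 reads per D619N library, and a lower level was not detectable at this depth. Each of these was lost in 3 of 17 alternatives.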

How the results depend on the processing

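Most passenger values were 0 to 3 reads, and many folds could only be bounded. An edgeR test on reads derived from the RPM was planned and was not run, because the libraries held too few low values to establish the reads as counts. For values that answer a comparison, counts of calls were taken as kept within 1.5 times. Shares, numbers listed and ratios of shares were taken as kept within 1 SD between replicates. By these rules 302 values under an alternative were kept, 83 moved and 2 reversed. A wide SD lets large changes pass as kept. The G604R ratio of shares is such a case, at 2.41 without replicate 3 against 5.34. The cause of the changes was not tested.

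With a pseudocount of 10 RPM, the IP against input counts were 6 for F182del, 1 for N359H and 0 for the empty vector, the G604R against WT count was 0, and the interactions had 0 for F182del and 1 each for G604R and D619N. Without the filter G604R against WT had 0. On the deposited RPM, IP against input had 16 for WT-AGO2 and 4 for N359H, G604R and D619N against WT had 0, and the interactions had 3 for F182del and 1 for D619N. Scaled to mature reads, N359H IP against input had 1. With a pseudocount of 10 CPM, ratios called were 2 for N359H and 0 for D619N against input, and 0 for N359H against WT.

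With the replicate block, IP against input had 5 for WT-AGO2, 1 for N359H and 0 for G604R and D619N, G604R against WT had 0, and the interactions had 3, 0 and 1 for F182del, G604R and D619N. Ratios called with the block were 1 for N359H and 0 for D619N against input, and 0 for both against WT. The block moved no other count by over 1.5 times.

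Without Mir-221-P1a_5p* the share differences to WT were 0.646, 1.05 and -0.360 percentage points for F182del, G604R and D619N, and the 3p share differences 7.56 for F182del and 18 for D619N. At the common depth, the differences in strands listed were -0.795 for N359H and -1.64 for D619N, and 2.45 for G604R, which reversed. With values under 3 reads set to 0, the F182del ratio of shares was 2.50.

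Leaving out each library in turn gave, for IP against input, 1 to 6 strands for WT-AGO2, 6 to 11 for F182del, 0 to 2 for N359H, 2 to 5 for D619N and 3 to 9 for the empty vector. Against WT it gave 0 to 3 for N359H, 0 to 4 for G604R and 5 to 10 for D619N, and for the interactions 0 to 1 for F182del and 1 to 3 for G604R. Ratios ranged from 2 to 5, 3 to 6, 0 to 3 and 0 to 3 for WT-AGO2, F182del, N359H and D619N against input, and from 0 to 1, 1 to 3, 1 to 4 and 1 to 3 for F182del, N359H, G604R and D619N against WT. The 3p share difference of F182del ranged from -0.890 to 3.58 and reversed once. Of the strands named, 505 calls under an alternative were kept and 112 were lost.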
